A study of Homo sapiens with 4 samples.

Results

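The genes described here encode parts of the neuronal and neuroendocrine secretory machinery, with the repressor that keeps such genes silent in other tissues. They are CBLN2, SYT4, SYT1, SYT7, DDC, CHGA, CHGB, SCG2 and REST. They were chosen by symbol, and CBLN2 and SYT4 were picked for their rise in these libraries, so their fold changes are a description with no test. Of the 9 genes, 8 were found among the 19205 genes of the series table, and CHGB was not analysed here. Of the 8, 5 had enough counts to be among the 14112 genes tested, and SYT1, SCG2 and CHGA did not.

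Polyadenylated RNA was sequenced from the cell line LNCaP, derived from a human prostate cancer and responsive to androgen, grown in RPMI-1640 with fetal bovine serum, after lentiviral infection and selection in puromycin. There were 2 groups of 2 libraries, cells with the empty vector and cells with HOXD13 overexpressed, and the lentivirus and the selection were common to both. HOXD13 is a posterior homeobox transcription factor. The sources used here do not give the vector's promoter, nor whether the cells were a pool or a clone. The labels do not say that replicates were separate cultures, so the spread behind each p-value is that between these libraries and may be technical. Libraries held 6881110 to 8530487 expected counts. HOXD13 itself had 0 counts in each empty-vector library, 88 in HOXD13 replicate 1 and 104 in HOXD13 replicate 2, so the labels matched the overexpressed gene. Across all tested genes, 16.0% were called in either direction, 7.91% higher and 8.11% lower with HOXD13, by the edgeR quasi-likelihood test at a Benjamini-Hochberg adjusted p under 0.05. Of the 5 genes described here that were tested, 4 were higher, none was lower and REST was not called, and CBLN2 and SYT4 are in that count by choice. In FPKM the groups did not overlap for 54.1% of tested genes, 29.3% with HOXD13 higher and 24.8% with it lower.

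Neurons and neuroendocrine cells store peptides and amines in vesicles that fuse with the plasma membrane when calcium rises. Granins fill dense-core granules, synaptotagmins link calcium to fusion, and amine-forming enzymes such as DDC make part of the cargo. REST binds RE1 elements in many of these genes and recruits corepressors that hold them silent outside neurons. In the prostate, neuroendocrine cells are a rare epithelial type, and granins and other neuroendocrine genes mark the tumours that take on their features. LNCaP is a luminal line.

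The promoter windows of CBLN2, SYT4 and DDC are shown because these 3 genes were higher in both HOXD13 libraries and each window holds a short motif that was searched. Each window runs from 250 bases before to 50 bases after the gene's start in RefSeq (build GRCh38.p14), 5′ to 3′ on the gene's strand, and capitals mark the match. The CBLN2 window is chr18:72544293-72544592, minus strand. The SYT4 window is chr18:43277441-43277740, minus strand. DDC has 2 windows and the one shown is chr7:50561022-50561321, minus strand. The other DDC window held no match to any motif searched.
CBLN2: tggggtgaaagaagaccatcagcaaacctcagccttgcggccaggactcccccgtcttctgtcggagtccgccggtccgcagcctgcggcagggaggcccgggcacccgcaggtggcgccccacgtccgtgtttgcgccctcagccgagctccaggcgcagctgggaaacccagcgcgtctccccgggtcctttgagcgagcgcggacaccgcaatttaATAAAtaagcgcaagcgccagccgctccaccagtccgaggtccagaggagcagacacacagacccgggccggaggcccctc
SYT4: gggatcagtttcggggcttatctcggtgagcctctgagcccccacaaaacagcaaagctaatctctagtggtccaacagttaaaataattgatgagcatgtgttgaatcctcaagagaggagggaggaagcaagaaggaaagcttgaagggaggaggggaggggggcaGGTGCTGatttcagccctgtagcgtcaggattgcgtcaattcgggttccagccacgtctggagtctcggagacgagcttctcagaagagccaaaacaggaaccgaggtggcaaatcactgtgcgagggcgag
DDC: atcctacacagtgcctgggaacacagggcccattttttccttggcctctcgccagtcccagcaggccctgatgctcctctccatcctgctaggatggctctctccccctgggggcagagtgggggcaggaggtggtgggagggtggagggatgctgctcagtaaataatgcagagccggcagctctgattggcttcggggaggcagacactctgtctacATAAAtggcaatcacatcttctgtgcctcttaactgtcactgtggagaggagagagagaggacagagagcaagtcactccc
The capitals in CBLN2 and DDC are ATAAA, a short A/T-rich stretch that occurs in sites of posterior HOX proteins and of other DNA-binding proteins. Such a match does not mark these windows as HOXD13 sites. Which protein binds there, if any, was not tested. Those in SYT4 are GGTGCTG, the reverse complement of CAGCACC from the left part of RE1. In both CBLN2 and DDC the first base of ATAAA lay 31 bases before the start. An ATAAA at that exact place was found in 0.402% of all 35116 RefSeq windows. The place was taken from the matches in CBLN2 and DDC after they were seen, so that share is no background for them. ATAAA on either strand at any place was found in 34.9% of the windows, and in 22.8% of those of tested genes. CAGCACC on either strand was found in 7.75% of the windows, and among the genes described here only in SYT4. The longer TTCAGCACC, which contains CAGCACC, was in 0.376% of windows and in none of those looked up for these genes. GGACAGC, from the right part of RE1, was in 6.03% of windows and in 1 of the 2 windows of REST. Windows were found for 6 of the 8 genes. A match is a description of these letters and not a binding site.

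SYT4, a vesicle synaptotagmin whose first C2 domain lacks a residue needed for calcium binding, was the most abundant of the 13 listed SYT genes in every library and had the largest log2 fold change of those tested. SYT4 (gene ID 6860) was at 16.48 and 16.07 FPKM in the empty-vector libraries and at 34.52 and 33.96 FPKM in the HOXD13 libraries, from 458 to 1219 counts. Both HOXD13 libraries were far above both empty-vector libraries. The means were 16.3 ± 0.290 and 34.2 ± 0.396 FPKM (SD, n = 2 in each group), a log2 fold change of 1.06 (SE 0.0589). Among the 9710 tested genes whose mean FPKM was 5 or more, SYT4 had the 6th largest log2 fold change. Among all 14112 tested genes it was 116th. SYT4 was picked for its rise, so these ranks only describe that choice. The log2 fold change kept within 1.04 to 1.07 as each library was left out in turn.

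SYT7, a high-affinity calcium sensor of slow vesicle and lysosome fusion, rose by a smaller amount. SYT7 (gene ID 9066) was at 8.51 and 9.63 FPKM with the empty vector and at 11.14 and 12.02 FPKM with HOXD13. The groups did not overlap, which was so, with HOXD13 higher, for 29.3% of all tested genes. The log2 fold change was 0.35 (SE 0.0770; edgeR adjusted p = 0.00154), a 1.27-fold rise with a 95% interval of 1.14 to 1.42. Leaving out empty-vector replicate 1, the library with the lowest SYT7, ended the call (log2 fold change 0.25, adjusted p = 0.0727), as did the tests with limma on log2(FPKM + 1) (0.0999) and log2(FPKM + 0.1) (0.101).

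SYT1, the calcium sensor of fast synaptic release, was barely detected. SYT1 (gene ID 6857) had 2 counts in empty-vector replicate 1, 0 in empty-vector replicate 2, 5 in HOXD13 replicate 1 and 8 in HOXD13 replicate 2. That is 0.05, 0, 0.13 and 0.2 FPKM in the same order. Both HOXD13 libraries were higher, but the totals were 2 counts against 13. Scaled to library totals the ratio was 5.61, with an exact 95% interval of 1.27 to 51.2 that covers counting error only. Fitted without a low-count filter, SYT1 was not called (adjusted p = 0.191).

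The rest of the synaptotagmin family was low. SYT4 and SYT7 together held most of the summed FPKM of the 13 listed SYT genes, and the other 11 summed to 4.93 to 6.05 FPKM in each library. The share of SYT4 in that sum was 55.1% and 51.9% with the empty vector and 67.6% and 65.3% with HOXD13. The share of SYT7 was lower with HOXD13, at 28.4%, 31.1%, 21.8% and 23.1% in the same order, although its own level was higher. The plot of synaptotagmin genes shows that gap. Of the 12 tested genes of the wider family, which adds the synaptotagmin-like SYTL and the extended ESYT genes, 2 were higher, SYT4 and SYT7, none was lower and 10 were not called. That is a called share of 16.7%, against 16.0% over all tested genes, and SYT4 was picked for its rise. The count ran from 1 to 5 over the alternatives. The median log2 fold change was 0.25, or 0.22 without SYT4, against 0.00 over all tested genes. It was 0.39 without empty-vector replicate 2. ESYT1, a tether between the endoplasmic reticulum and the plasma membrane, was at 45.22 to 47.61 FPKM in the 4 libraries and was not called (adjusted p = 0.510).

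**Figure D1:**
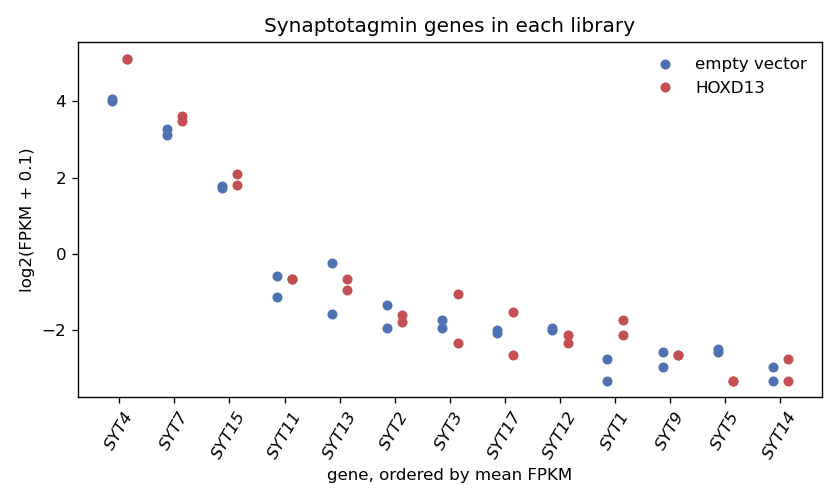
Level of each listed SYT gene in each library, as log2(FPKM + 0.1), with genes ordered by mean FPKM and 2 points per group. SYT4 is the most abundant, and its 2 HOXD13 points (33.96 and 34.52 FPKM) overlie each other and lie well above its empty-vector points.

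CBLN2, a secreted synaptic organiser of the C1q family that binds neurexins, had the largest rise of the genes described here. CBLN2 (gene ID 147381) was at 18.09 and 18.21 FPKM with the empty vector and at 43.92 and 41.12 FPKM with HOXD13, from 366 to 1094 counts. The 2 empty-vector libraries were nearly equal and both HOXD13 libraries were higher. The means were 18.1 ± 0.0849 and 42.5 ± 1.98 FPKM (SD, n = 2 in each group), a log2 fold change of 1.21 (SE 0.0656), or 2.32-fold. Over the left-out libraries the value ran from 1.17 to 1.26. It was the 3rd largest among the same 9710 genes and the 78th among all 14112 tested, with CBLN2 picked for its rise. Tested genes of a similar count level had a median log2 fold change of -0.02.

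**Figure D2:**
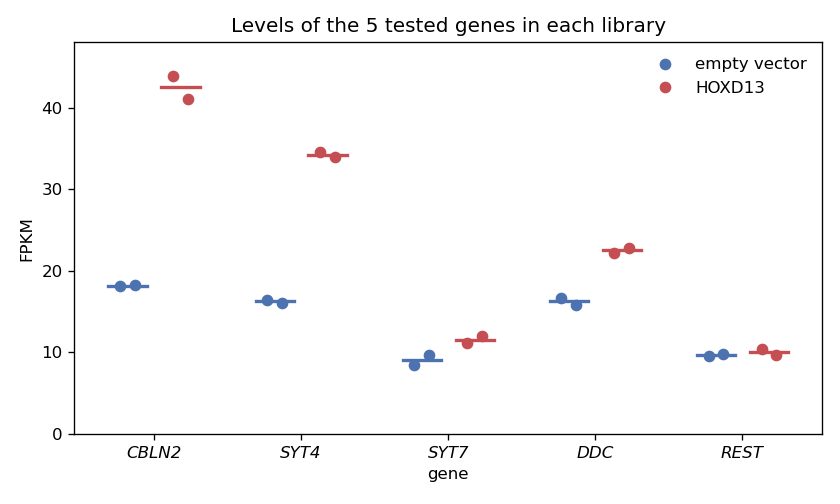
FPKM of CBLN2, SYT4, SYT7, DDC and REST in each of the 4 libraries, with a line at each mean of 2. The HOXD13 libraries lie above the empty-vector libraries for CBLN2, SYT4, SYT7 and DDC, while the groups overlap for REST.

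Among the cerebellins and their synaptic partners, such as the neurexins and neuroligins, 8 genes were tested. CBLN2 and NRXN3 were higher, none was lower and 6 were not called, a called share of 25.0% against 16.0% over all tested genes, with CBLN2 picked for its rise. NRXN3, one of the neurexins to which cerebellins bind, was at 1.07 and 1.22 FPKM with the empty vector and 1.83 and 1.54 FPKM with HOXD13 (log2 fold change 0.54, adjusted p = 0.0234). Both HOXD13 libraries were higher, at a low level. NRXN3 was not called once HOXD13 replicate 1 (adjusted p = 0.286) or empty-vector replicate 1 (0.169) was left out, nor with limma on log2(FPKM + 1) (0.277) and log2(FPKM + 0.1) (0.293). CBLN3, the other cerebellin tested, was at 1.93, 2.77, 1.99 and 2.13 FPKM across empty-vector replicates 1 and 2 and HOXD13 replicates 1 and 2, with no separation. The median log2 fold change of the 8 was -0.08, and it was 0.15 without empty-vector replicate 1. CBLN1 and CBLN4 were not analysed here.

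Of the 4 nearest tested genes around CBLN2 in RefSeq order, 2 on each side, the 2 next to it were higher. The others were not called, and the pattern was looked for after the values of CBLN2 were seen. Over all tested genes 7.91% were called higher and 8.11% lower. NETO1, which encodes an auxiliary subunit of kainate receptors, was at 115.96 and 119.56 FPKM with the empty vector and at 139.76 and 141.33 FPKM with HOXD13. The groups were well apart for so small a difference, with a log2 fold change of 0.27 (SE 0.0355; edgeR adjusted p = 1.34e-06). That was the 2097th largest log2 fold change among all tested genes. The adjusted p stayed under the threshold in the 11 alternatives, the highest being 0.0251. On the other side, LOC100505776 had 4, 10.14, 18 and 28.07 expected counts in the same order of libraries as CBLN3 (log2 fold change 1.47, adjusted p = 0.0343), and its fractional counts mean that reads were divided between genes, so its value is uncertain. It was not called once empty-vector replicate 1 (log2 fold change 0.88, adjusted p = 0.411) or HOXD13 replicate 2 (0.309) was left out. Tested genes of the count level of LOC100505776 had a median log2 fold change of 0.14. Beyond NETO1 and LOC100505776, SOCS6 overlapped between the groups (log2 fold change -0.08, edgeR adjusted p = 0.783). LOC400655 had 12.16 and 11.67, then 24.27 and 25.78 expected counts and was not called (0.167). Of the 4 nearest tested genes around SYT4, on the same chromosome 18, 0 were called by edgeR, by limma or by the DESeq2 Wald test, with 0 at an unadjusted edgeR p under 0.05, and their log2 fold changes ran from 0.07 for SETBP1 to 0.35 for SLC14A2. Around DDC, SYT7 and REST, FIGNL1 (-0.22), PAICS (-0.17) and POLR2B (-0.17) were lower of 12 genes and none was higher. Over the 20 neighbours of all 5 tested genes described here, 2 were higher and 3 were lower. FIGNL1 and POLR2B were not called once empty-vector replicate 2 (log2 fold change -0.12 and -0.13) or HOXD13 replicate 1 (-0.20 and -0.13) was left out. PAICS kept within -0.18 to -0.16 over the left-out libraries. Limma called neither FIGNL1 nor POLR2B, nor PAICS (adjusted p = 0.0510 and 0.0506). The DESeq2 Wald test called PAICS (adjusted p = 0.000135) and POLR2B (0.0349) but not FIGNL1 (0.108).

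DDC, the decarboxylase that makes dopamine and serotonin, rose. DDC (gene ID 1644) was at 16.7 and 15.8 FPKM with the empty vector and at 22.16 and 22.85 FPKM with HOXD13, from 183 to 320 counts. Both HOXD13 libraries were higher. The log2 fold change was 0.45 (SE 0.101; edgeR adjusted p = 0.00177), a 1.37-fold rise with a 95% interval of 1.19 to 1.58. The adjusted p was 0.000340 to 0.0246 over the 10 alternatives that gave one, and the DESeq2 Wald test gave none.

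DDC was the called gene of the monoamine pathway. Of 11 tested genes for synthesis, storage and breakdown, DDC was called higher, none was lower and 10 were not called, a called share of 9.09% against 16.0% over all tested genes. The median log2 fold change was 0.01, and -0.06 to 0.04 as each library was left out. TH, which makes the dopamine precursor, and PNMT, which makes adrenaline, were listed at 0 counts in each of the 4 libraries. DBH, which turns dopamine into noradrenaline, was listed at 0.04 FPKM in HOXD13 replicate 1 and at 0 in the others. MAOA, which breaks amines down, was abundant. It was at 100.59, 98.1, 102.92 and 99.96 FPKM across empty-vector replicates 1 and 2 and HOXD13 replicates 1 and 2, with overlapping groups (adjusted p = 0.826). The vesicular transporter SLC18A2 was at 0.93 to 1.6 FPKM and overlapped as well (adjusted p = 0.942).

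CHGA and SCG2, granins of dense-core granules, had few or no counts. CHGA (gene ID 1113), the standard marker of neuroendocrine cells, was listed with 0 counts in each of the 4 libraries. A count of 0 allows up to 3 counts, which equal 0.391, 0.436, 0.352 and 0.360 CPM in empty-vector replicates 1 and 2 and HOXD13 replicates 1 and 2. SCG2 (gene ID 7857), the precursor of secretoneurin, had 1 count in empty-vector replicate 2, 2 counts in HOXD13 replicate 2 and 0 in the other libraries. No difference was detectable for CHGA or SCG2 at this depth. Such limits cover counting error only. The granin SCG3, which was chosen once its level was known, was at 0.14 to 0.25 FPKM. VGF, a granin-like peptide precursor, had counts of 10 and 13 in the empty-vector libraries, then 9 and 8, and was not called (adjusted p = 0.435).

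Some other genes of peptide secretion were expressed and changed in both directions. Of 9 tested genes of the granin and prohormone-processing list, 2 were higher, 1 was lower and 6 were not called, a called share of 33.3% against 16.0% over all tested genes. PCSK1N, the precursor of the convertase inhibitor proSAAS, was at 10.24 and 11.13 FPKM with the empty vector and 15.6 and 15.16 FPKM with HOXD13 (log2 fold change 0.51, adjusted p = 0.0214). The peptide-trimming carboxypeptidase CPE was at 29.03 and 29.85 FPKM, then 35.46 and 34.1 FPKM (log2 fold change 0.23, adjusted p = 0.0156). GAL, the precursor of the neuropeptide galanin, was at 37.72 and 32.57 FPKM, then 27.68 and 25.94 FPKM (log2 fold change -0.41, adjusted p = 0.0184). For each of the 3 the groups did not overlap, as for 54.1% of all tested genes, and each call was lost when certain libraries were left out. Without empty-vector replicate 1 the adjusted p was 0.143 for PCSK1N, 0.149 for CPE and 0.225 for GAL. Without HOXD13 replicate 1 it was 0.10 for PCSK1N and 0.0875 for CPE, and without HOXD13 replicate 2 it was 0.0610 for PCSK1N and 0.0871 for GAL. The median log2 fold change of the list was 0.08, and it was -0.01 without empty-vector replicate 2.

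Few genes for proteins that dock and fuse vesicles were called. Of 31 tested genes, VAMP2 was higher, NSF was lower and 29 were not called, a called share of 6.45% against 16.0% over all tested genes. VAMP2, the vesicle SNARE of synapses, was at 18.63 and 18.27 FPKM with the empty vector and 22.68 and 21.71 FPKM with HOXD13 (log2 fold change 0.25, adjusted p = 0.0451). It was not called once any 1 library was left out, with adjusted p from 0.0656 to 0.186. NSF, the ATPase that recycles SNAREs, was at 28.63 and 30.77 FPKM, then 26.07 and 27.23 FPKM (log2 fold change -0.17, adjusted p = 0.0378), and was not called without HOXD13 replicate 1 (0.199) or empty-vector replicate 2 (0.351). The neuronal SNARE gene SNAP25 was at 0.06, 0, 0 and 0.06 FPKM, while its broadly expressed relative SNAP23 was at 18.04 to 19.65 FPKM. SYP, the vesicle protein synaptophysin and a neuroendocrine marker, was at 0.8 and 0.65 FPKM with the empty vector and 1.53 and 0.88 FPKM with HOXD13, and was not called (adjusted p = 0.260).

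REST was expressed in every library at a level that did not separate the groups. REST (gene ID 5978) was at 9.55 and 9.84 FPKM with the empty vector and at 10.4 and 9.71 FPKM with HOXD13, from 500 to 656 counts. HOXD13 replicate 2 lay between the empty-vector libraries. The log2 fold change was 0.03 (SE 0.0692; edgeR adjusted p = 0.803), with a 95% interval for the fold of 0.929 to 1.13. It was -0.02 without HOXD13 replicate 1 (adjusted p = 0.945). In FPKM, CBLN2 was at 1.89 and 1.85 times the level of REST with the empty vector and at 4.22 and 4.23 times with HOXD13. SYT7 was below REST in both empty-vector libraries and above it in both HOXD13 libraries. With the empty vector SYT4 and DDC overlapped, as did SYT7 and REST, so neither pair can be ordered beyond its spread in that group.

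**Figure D3:**
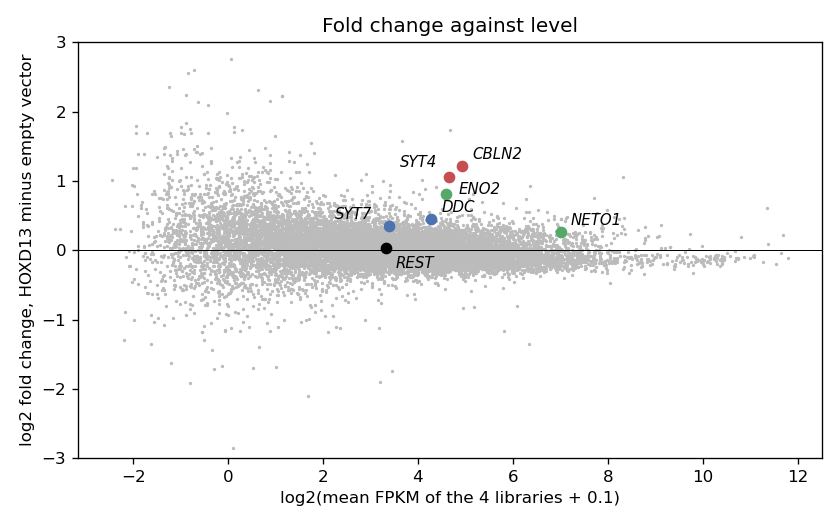
Log2 fold change (HOXD13 minus empty vector) of each tested gene against log2(mean FPKM + 0.1), with CBLN2, SYT4, SYT7, DDC, REST, ENO2 and NETO1 marked, and 10 genes beyond the axis not drawn. CBLN2 and SYT4 lie above nearly all genes of similar level, SYT7 and DDC lie nearer to the cloud, and REST lies at 0.03.

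The called genes among the partners of REST were lower, by small amounts. Of 19 tested genes for REST, its corepressors and the factors that control its stability, none was higher, 4 were lower and 15 were not called. The called share was 21.1%, against 16.0% over all tested genes. USP7, which removes ubiquitin from REST, was at 40.43 and 40.11 FPKM with the empty vector and 34.53 and 35.51 FPKM with HOXD13 (log2 fold change -0.22, adjusted p = 0.000631). The deacetylase genes HDAC2 (log2 fold change -0.18, adjusted p = 0.00813) and HDAC1 (-0.15, adjusted p = 0.0243) and the chromatin remodeller gene SMARCA4 (-0.14, adjusted p = 0.0158) were lower. The USP7 call held when each library was left out but not with limma on log2(FPKM + 1) (adjusted p = 0.0757). HDAC2 was not called without empty-vector replicate 1 (0.10), nor HDAC1 without empty-vector replicate 2 (0.234) or HOXD13 replicate 1 (0.122). SMARCA4 was not called without empty-vector replicate 1 (0.111), empty-vector replicate 2 (0.0764) or HOXD13 replicate 2 (0.0679). Tested genes of the highest of 10 count bins, which holds these 4, had a median log2 fold change of -0.06.

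SYT4 and SYT7 were the called genes among those known as REST targets. Of 15 tested targets, SYT4 and SYT7 were higher, none was lower and 13 were not called. The median log2 fold change was 0.09, and it was 0.19 without empty-vector replicate 2. Most of these targets lie in count bins 1, 2 and 3 of 10, the lowest. All tested genes of those bins had median log2 fold changes of 0.14, 0.13 and 0.07. The called share was 13.3%, against 16.0% over all tested genes, and SYT4 was picked for its rise. CPLX1, a fusion clamp of synapses, was at 8.84, 10.18, 9.76 and 10.64 FPKM across empty-vector replicates 1 and 2 and HOXD13 replicates 1 and 2, with overlapping groups (adjusted p = 0.711). STMN3, a microtubule regulator of neurons, was at 1.44 and 1.91 FPKM, then 2.74 and 2.70 FPKM, and was not called (log2 fold change 0.71, adjusted p = 0.0775). The RE1 genes SCG2, SNAP25 and CHGA were near or at 0, as given above.

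**Figure D4:**
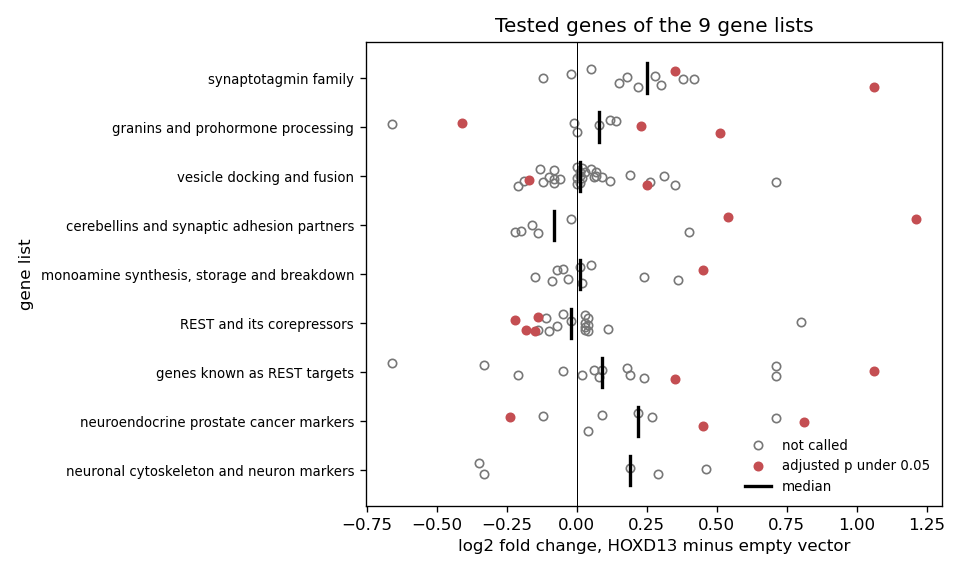
Log2 fold change of the tested genes of the 9 gene lists, with filled points at an edgeR adjusted p under 0.05 and a bar at each list's median. The points above 1 are CBLN2, and SYT4 in each of the 2 lists that hold it, since a gene in several lists is drawn in each.

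Among markers of neuroendocrine prostate cancer, ENO2 and DDC rose and most others were low. Of 9 tested markers, 2 were higher, 1 was lower and 6 were not called, with a median log2 fold change of 0.22 that was 0.09 without HOXD13 replicate 2. The called share was 33.3%, against 16.0% over all tested genes. ENO2, the neuron-specific enolase of glycolysis, was at 17.4 and 17.03 FPKM with the empty vector and at 32.06 and 29.16 FPKM with HOXD13. Both HOXD13 libraries were far higher (log2 fold change 0.81, SE 0.0796, adjusted p = 4.27e-09), and the call held in the 11 alternatives. AURKA, a mitotic kinase, was at 29.88 and 26.74 FPKM, then 22.37 and 25.34 FPKM (log2 fold change -0.24, adjusted p = 0.0491). AURKA was not called without empty-vector replicate 1 (0.369) or HOXD13 replicate 1 (0.454, log2 fold change -0.12). SRRM4, the splicing factor that makes a truncated REST, was at 0.04 to 0.14 FPKM. Of the 12 called genes of these lists beside the genes described, limma called only PCSK1N and ENO2. The DESeq2 Wald test called HDAC2, SMARCA4, USP7 and ENO2, and gave no adjusted p for PCSK1N, GAL and NRXN3. The counts of NSF, NRXN3, HDAC2, ENO2 and AURKA were fractional, since RSEM divided reads between genes, which leaves these levels uncertain. Among 5 tested neuronal cytoskeleton and neuron markers 0 were called by edgeR or by the DESeq2 Wald test, and 0 of the 4 that limma could fit were called by it. Over all tested genes edgeR called 16.0%, so 5 genes are too few for that 0 to show a lack of change. Of the 5, 2 had an unadjusted edgeR p under 0.05, and the share of all tested genes under it is not given here. NEFL, a neurofilament chain, was at 2.72 and 2.25 FPKM, then 3.23 and 3.71 FPKM (adjusted p = 0.0701), and the dendritic microtubule protein gene MAP2 was at 2.91 and 3.08 FPKM, then 2.31 and 2.34 FPKM (adjusted p = 0.0571).

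The luminal markers of LNCaP were present in every library and moved with the same contrast. The 13 markers, all tested, summed to 4035 and 4084 FPKM with the empty vector and 5450 and 5561 FPKM with HOXD13. Of these, 8 were higher, 1, HOXB13, was lower (log2 fold change -0.11, adjusted p = 0.0353) and 4 were not called. KLK3, prostate-specific antigen, was at 2043.74 and 2074.09 FPKM, then 3139.54 and 3254.6 FPKM (log2 fold change 0.61, adjusted p = 5.25e-18), with fractional counts. Summed neuron markers were at 15.7 to 16.6 FPKM with the empty vector and 15.6 to 17.5 FPKM with HOXD13, over 12 of 18 listed genes. Summed fibroblast markers, over 4 of 10 listed genes, were at 6.24 and 7.21 FPKM, then 6.89 and 6.48 FPKM. Summed leukocyte markers, over 6 of 8 listed genes, were at 41.3 and 37.6 FPKM, then 42.6 and 44.4 FPKM, mostly LYZ and CD68, with CD3E at 0. Summed endothelial markers, over 6 of 8 listed genes, were at 3.86 and 3.84 FPKM, then 5.46 and 5.62 FPKM, with VWF called higher (log2 fold change 0.52, adjusted p = 0.00195, but 0.130 and 0.128 in the limma fits) and KDR and TEK at no more than 0.12 FPKM. The part of these markers in the rises of CBLN2, SYT4, SYT7 and DDC was not tested. In bulk RNA, more cells expressing a gene and more RNA per cell cannot be told apart.

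The genes with the profile most like each of CBLN2, SYT4 and REST were taken as those with the smallest root mean square distance between centred log2(FPKM + 1) values over the 4 libraries, among 9815 genes whose mean FPKM was 5 or more. With 4 libraries this measures mainly the size of the difference between the groups. GDF15, a secreted stress-induced cytokine, was the nearest to CBLN2 (distance 0.0605) and to SYT4 (0.0245). SYT4 was the next nearest to CBLN2 (0.0828). The others nearest to CBLN2 were SNORA81 and SLC16A3 (both 0.149) and ADRA2A (0.151). Those nearest to SYT4 after GDF15 were SNORA81 (0.0689), NRP1 (0.0788), CBLN2 (0.0828) and SLC16A3 (0.0846). The profile of REST, nearly flat, was closest to RNF144A (0.00325), TRAFD1 (0.00543), SUZ12 (0.00608), ELL3 (0.00674) and KLC1 (0.00702).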

How the data were processed

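RNA-seq of 4 LNCaP libraries was analysed. Reads were processed with Bowtie2 and RSEM, and hg18 and hg19 are named with no role, per the submitters' processing notes. RSEM expected counts, transcript lengths and FPKM per RefSeq gene were deposited by the authors for each library, per the file headers, and the deposited FPKM of the series table equalled those of the library tables. A gene with no row in a library was set to 0. Gene IDs and symbols are those of the files, and RefSeq GRCh38.p14 gave promoter sequences and the order of genes. No coordinate from the files was used.

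Expected counts were rounded and tested by quasi-likelihood in edgeR 4.0.16 under R 4.3.3 (robust, TMM, filterByExpr) over 14112 genes, HOXD13 minus empty vector, with Benjamini-Hochberg adjustment. Standard errors are those the F statistic implies. The biological coefficient of variation was 2.70%. Expected counts of the genes described were whole at the 2 decimals of the files. SD is over 2 libraries. Alternatives used DESeq2 1.42.0 and limma 3.58.1, other filters, a replicate block and left-out libraries.

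The genes and the 13 lists were chosen, from textbook knowledge, with earlier results of these data known. Named genes are the 9, up to 4 called genes per list by size or, in a list with no call, the 2 of smallest p, and the 5 most similar profiles. Of the luminal markers KLK3 is given. Chosen after their values were seen were HOXB13, CD3E, KDR, TEK, SNAP25, SNAP23, SCG3, STMN3, MAOA, TH, PNMT, DBH, SLC18A2, CBLN3, ESYT1, CPLX1, SYP, VGF and SRRM4. Some members of the lists are counted but not reported by name here.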

Additional observations from a re-analysis of the deposited data

How the results depend on the processing

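Calls differed more between the tests, which did not judge the same genes, than between the scalings or filters within edgeR. Of 14112 genes, 2260 were called (1116 higher, 1144 lower). The DESeq2 Wald test called 1065 (467 higher, 598 lower), limma on log2(FPKM + 1) 659 (398 and 261) and limma on log2(FPKM + 0.1) 647 (382 and 265). On leaving out each library the total ran from 1465 to 1991, higher calls from 751 to 927 and lower calls from 714 to 1064, and the lowest total and the fewest lower calls (714) came without empty-vector replicate 1, with 759 lower calls without empty-vector replicate 2. Of the genes described, 4 were called, and 3 to 4 under the alternatives. Of the other 104 tested genes of the 9 lists, 12 were called, against 4 with the DESeq2 Wald test and 2 with either limma fit, and 4 to 10 with a library left out (4 without empty-vector replicate 1, 5 without HOXD13 replicate 1). For comparison, edgeR called 16.0% of all tested genes, a share that the 12 of 104 did not exceed. The DESeq2 Wald test gave no adjusted p for PCSK1N, GAL and NRXN3, and genes without one were counted as not called. The limma fits kept only genes at 1 FPKM or more in at least 2 libraries. REST ran from -0.02, a change of sign without HOXD13 replicate 1, to 0.08. The causes were not tested. With a lone library in a group, its spread is assumed to be that of the other group. The replicate number as a block gave 2523 calls and changed no call of the genes described; same-numbered libraries shared only a number, and their deviations had a correlation of 0.0703 over genes. Groups of 2 libraries allow no test of single libraries, and counts under about 10 per library limit SYT1, SCG2 and CHGA.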
